A study of Caenorhabditis elegans with 8 samples.

Results

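The peaks of DAF-16, the worm FOXO transcription factor, that were assigned to genes of sugar and central carbon metabolism were examined in wild-type and daf-2(-) Caenorhabditis elegans. Members were taken by gene symbol from the WT and daf-2(-) lists of ChIP-seq peaks. They were every gene named tps-, tre-, gpd-, hxk-, aldo-, pyk-, idh-, mdh- or sdha-, together with a list of single enzymes of glycolysis, gluconeogenesis, glycogen synthesis and the citric acid cycle, the glucose transporter gene fgt-1, nnt-1 and pcyt-1. The rule found 26 genes of the 6391 that had a peak in either list. They held 29 of the 5396 WT peaks, in 23 genes, and 35 of the 6859 daf-2(-) peaks, in all 26. By their known roles the label fitted these genes except pcyt-1, whose product makes an intermediate of phosphatidylcholine and takes no part in carbon breakdown. nnt-1, which supplies NADPH, stands beside carbon metabolism rather than in it. gei-7, an older symbol of icl-1, was in neither list.

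The study mapped the endogenous protein with a rabbit polyclonal antibody in mixed-stage worms grown at 20 °C on OP50 bacteria. For ChIP-seq it used 4 strains, each with 1 ChIP and 1 input library and none with a transgene. WT was N2, daf-2(-) carried e1370 in the gene of the insulin/IGF-1 receptor and so had low insulin signalling, daf-16(-) carried the deletion mgDf50, and daf-16(-);daf-2(-) carried both alleles. Chromatin was pooled for sequencing, so no value below has a spread between replicates, and no test between strains was possible. According to a key in the study's supplement, each list leaves out peaks that also appeared in the matching DAF-16-null strain. Whole worms were used, and fewer cells with bound DAF-16 cannot be told apart from less binding per cell.

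When insulin signalling through DAF-2 is low, DAF-16 enters the nucleus and acts on genes of stress resistance, metabolism and lifespan. Its metabolic setting in the worm is known from the dauer larva and from daf-2 mutants, which store fat, glycogen and the disaccharide trehalose, and which use the glyoxylate cycle and gluconeogenesis to turn stored lipid into sugar. Glycolysis breaks glucose down to pyruvate, the citric acid cycle oxidises acetyl-CoA, and gluconeogenesis runs back from oxaloacetate to glucose past the irreversible steps of glycolysis.

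Each peak is described by values that the peak caller gave. The height is the number of overlapping tags at the summit, the fold enrichment is that height over the local background of the input, and the tag count is the number of tags inside the peak. The smallest background was 7.81 in WT and 7.28 in daf-2(-). Within 1% of it stood 37.2% of WT and 45.8% of daf-2(-) peaks, among them 7 WT and 11 daf-2(-) member peaks. For these peaks the fold enrichment follows the height. Distances run from the centre of the peak to the assigned transcription start site (TSS), with negative values upstream. Percentiles are those of the height within the same list. A peak was shared when it overlapped a peak of the other list by at least 1 bp. Coordinates are those of the lists, on the WS230 genome.

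DAF-16 peaks were present at most steps of the pathway in both strains. Besides the member peaks, RefSeq names placed hxk-1 and hxk-3 in the lists under their sequence names, so that the rule covered 40 genes of the genome. Of these 40, 25 had a WT peak (62.5%, Wilson 95% interval 47.0 to 75.8) and 28 a daf-2(-) peak (70%, 54.6 to 81.9). Over all 19983 protein-coding genes the shares were 15.0% in WT and 18.0% in daf-2(-). Where the fold enrichment had to be 10 or more, the shares were 22 of 40 genes (55%, 39.8 to 69.3) against 9.15% in WT, and 20 of 40 (50%, 35.2 to 64.8) against 6.42% in daf-2(-). The genes are described here because of their place in metabolism, and these shares are counts beside the background without a test.

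The member peaks were also taller than the lists they came from. Their median height was 138 in WT (95% interval 125 to 193) against 90 for all WT peaks, and 90 in daf-2(-) (73 to 143) against 56. The median fold enrichment was 15.95 (12.7 to 21.2) against 10.5 in WT and 11.7 (9.32 to 16.8) against 7.24 in daf-2(-). The local background behind these ratios differed little, with medians of 8.38 and 8.22 in WT and of 7.65 and 7.44 in daf-2(-). A fold enrichment of 10 or more was reached by 24 of 29 WT peaks (82.8%, 65.5 to 92.4) against 54.6% of the list, and by 22 of 35 daf-2(-) peaks (62.9%, 46.3 to 76.8) against 30.1%. The peaks of protein-coding genes alone gave 56.8% and 31.1%. At or above percentile 90 of height stood 10 of 29 WT peaks (34.5%, 19.9 to 52.7) against 9.93%, and 13 of 35 daf-2(-) peaks (37.1%, 23.2 to 53.7) against 9.90%. The member peaks were longer too, with a median of 1312 bp against 961 bp in WT and of 1009 bp against 835 bp in daf-2(-). Member peaks had an FDR of 0.12% to 1.37% in WT, and of at most 0.14% in daf-2(-). Below the median height of the list stood 6 WT member peaks (20.7%, 9.85 to 38.4) against 49.1%, and 8 daf-2(-) member peaks (22.9%, 12.1 to 39.0) against 49.3%.

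**Figure D1:**
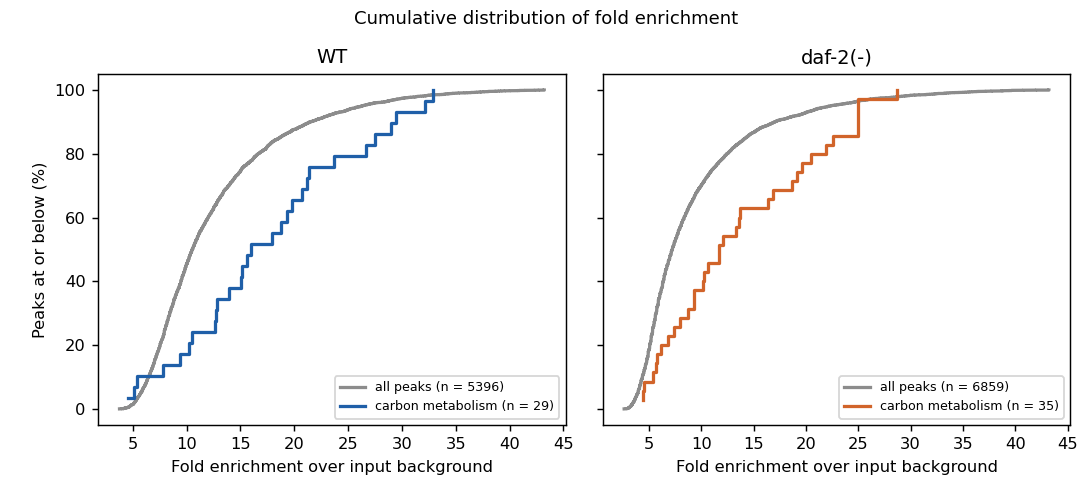
Cumulative share of peaks (percent, y axis) at or below each fold enrichment over the input background (x axis), in WT (left) and daf-2(-) (right). Grey lines are all peaks of the list and coloured lines the 29 WT and 35 daf-2(-) member peaks, whose medians of 15.95 and 11.7 lie to the right of 10.5 and 7.24.

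The tallest peaks stood at the genes of gluconeogenesis, the glyoxylate cycle and glycogen synthesis. pck-1 encodes phosphoenolpyruvate carboxykinase, which opens gluconeogenesis from oxaloacetate, and it had the tallest member peak of each list. The WT pck-1 peak spanned chrIII:64749-67892 (3144 bp), was centred at -58 bp and held 1028 tags, with a height of 284 (percentile 98.3) and a fold enrichment of 23.7. The daf-2(-) pck-1 peak reached a height of 209 (percentile 97.4) and a fold enrichment of 28.7 over 722 tags, and lay at chrIII:64867-67808 (2942 bp) with its centre at -75 bp. Height was thus lower in daf-2(-), by a log2 ratio of -0.44 (95% counting interval -0.71 to -0.18), whereas fold enrichment was higher, with a background of 11.97 in WT and 7.29 in daf-2(-). The daf-2(-) value lies within 1% of the smallest background of its list. Over all 4717 pairs of overlapping peaks the median log2 ratio of height was -0.53, and heights were not scaled to library size. In WT the 95% Poisson interval of the tag count was 966 to 1093 and in daf-2(-) it was 670 to 777. Each pck-1 peak was centred upstream, but its summit lay downstream of the assigned TSS (532 and 557 bp, WT first).

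fbp-1 encodes fructose-1,6-bisphosphatase, the step of gluconeogenesis that opposes phosphofructokinase. It carried 2 peaks in each list, a proximal one and a distal one, and both were shared. The WT fbp-1 proximal peak lay at chrI:2585874-2586878 (1005 bp), centred at -250 bp, and its 338 tags rose to a height of 246 (percentile 96.3), a fold enrichment of 26.6. The daf-2(-) fbp-1 proximal peak spanned chrI:2585900-2586737 (838 bp), was centred at -192 bp and held 250 tags, with a height of 182 (percentile 95.9) and a fold enrichment of 24.96. The summits of this pair were 13 bp apart. At the distal site, the WT fbp-1 peak reached a height of 259 (percentile 97.03) and a fold enrichment of 32.9 over 575 tags, and lay at chrI:2587054-2588241 (1188 bp) with its centre at -1521 bp. The daf-2(-) fbp-1 distal peak lay at chrI:2587093-2588169 (1077 bp), centred at -1505 bp, and its 340 tags rose to a height of 182 (percentile 95.9), a fold enrichment of 24.96. Its summit lay 4 bp from that of WT, and both daf-2(-) peaks had the same height. The log2 ratios of height were -0.43 (95% counting interval -0.72 to -0.15) at the proximal and -0.51 (95% counting interval -0.79 to -0.23) at the distal site.

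gsy-1 encodes glycogen synthase. The WT gsy-1 peak spanned chrII:12878283-12879337 (1055 bp), was centred at -706 bp and held 464 tags, with a height of 253 (percentile 96.7) and a fold enrichment of 32.2. The daf-2(-) gsy-1 peak reached a height of 186 (percentile 96.2) and a fold enrichment of 25 over 351 tags, and lay at chrII:12878367-12879261 (895 bp) with its centre at -710 bp. It was among the 2 tallest member peaks in daf-2(-) and among the 3 tallest in WT. No member peak of gsy-1 or fbp-1 was centred within the gene model.

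icl-1 encodes the bifunctional enzyme of the glyoxylate cycle, isocitrate lyase and malate synthase, which lets worms make sugar from acetyl-CoA. By gene name it belonged to daf-2(-) alone, but its site had a peak in both lists. The daf-2(-) icl-1 peak lay at chrV:727792-728441 (650 bp), centred at -13 bp, and its 227 tags rose to a height of 182 (percentile 95.9), a fold enrichment of 24.96. A WT peak at chrV:727909-728635 had its summit 11 bp from that of icl-1 in daf-2(-), with 328 tags, a height of 252 (percentile 96.6) and a fold enrichment of 30.1. The WT list had assigned that peak to the neighbouring gene srh-2, whose TSS was nearer (-37 bp) than that of icl-1 (-169 bp). Read by position, the pair had a log2 ratio of height of -0.47 (95% counting interval -0.75 to -0.19), and 24 of the 26 member genes had a shared peak. The share of genes with a shared peak was not computed over all genes, so this count has no background beside it. The daf-2(-) icl-1 peak also touched the edge of a wide WT peak, chrV:723627-727907, which runs over the icl-1 gene model and was assigned to fbxb-72 (height 114, fold enrichment 9.52). Their summits were 1115 bp apart, so the log2 ratio of 0.67 that this overlap gives compares different positions. Further peaks assigned to srh-2 lay upstream of icl-1, at -1168 and -2368 bp from its TSS in WT (heights 151 and 153) and at -1148 and -2404 bp in daf-2(-) (heights 98 and 102).

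**Figure D2:**
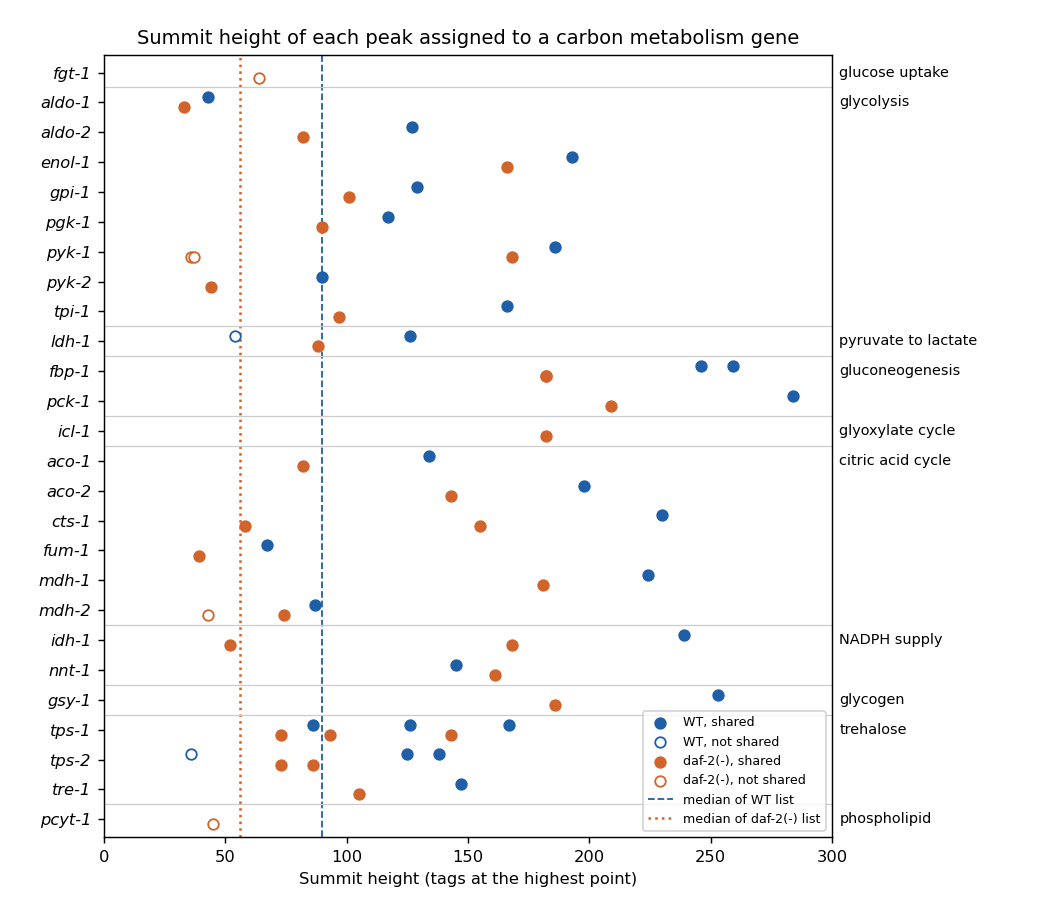
Summit height (tags, x axis) of each member peak, 1 gene per line grouped by step of metabolism, in WT (blue) and daf-2(-) (orange). Filled points are peaks that overlap a peak of the other list, open points are not shared, and the vertical lines are the list medians of 90 and 56. The 3 WT peaks at the gluconeogenesis genes stood between 246 and 284, and all 7 open points were at or below 64.

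Within glycolysis, 8 member genes had peaks in both lists, and their strength varied widely. Enolase (enol-1), pyruvate kinase (pyk-1) and triosephosphate isomerase (tpi-1) had the tallest in WT. In daf-2(-) enol-1 and pyk-1 were again the tallest, but gpi-1 (height 101) stood above tpi-1 (97). The WT enol-1 peak spanned chrII:8930793-8932919 (2127 bp), was centred at -240 bp and held 619 tags, with a height of 193 (percentile 90.9) and a fold enrichment of 19.8. The daf-2(-) enol-1 peak reached a height of 166 (percentile 94.4) and a fold enrichment of 20.5 over 468 tags, and lay at chrII:8930822-8932505 (1684 bp) with its centre at -432 bp. Height was lower in daf-2(-) by a log2 ratio of -0.22 (95% counting interval -0.53 to 0.09), an interval that includes equality. Pyruvate kinase catalyses the last step of glycolysis. The WT pyk-1 peak lay at chrI:9166487-9169320 (2834 bp), centred at -520 bp, and its 725 tags rose to a height of 186 (percentile 90.1), a fold enrichment of 20.7. The daf-2(-) pyk-1 main peak spanned chrI:9166677-9169296 (2620 bp), was centred at -437 bp and held 528 tags, with a height of 168 (percentile 94.6) and a fold enrichment of 19.2. Both centres were upstream, whereas both summits lay downstream of the assigned TSS (215 and 214 bp, WT first). With summits 1 bp apart and a log2 ratio of -0.15 (95% counting interval -0.46 to 0.16), this pair showed the smallest drop of height among the member pairs that were lower in daf-2(-). In daf-2(-) alone, pyk-1 had 2 further peaks at another annotated TSS, at chrI:9172221-9172950 (730 bp, 81 tags, height 36, fold enrichment 4.43, percentile 12.1, centre at -1273 bp) and chrI:9173055-9173679 (625 bp, 61 tags, height 37, fold enrichment 4.55, percentile 14.2, centre at -492 bp).

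The product of tpi-1 interconverts the triose phosphates. The WT tpi-1 peak reached a height of 166 (percentile 86.3) and a fold enrichment of 21.2 over 337 tags, and lay at chrII:12039743-12040812 (1070 bp) with its centre at -1136 bp. The daf-2(-) tpi-1 peak lay at chrII:12039839-12040848 (1010 bp), centred at -1202 bp, and its 215 tags rose to a height of 97 (percentile 80), a fold enrichment of 13.3. Among member pairs with a WT height of 150 or more, tpi-1 had the lowest log2 ratio of height, -0.78 (95% counting interval -1.15 to -0.41). The second pyruvate kinase gene, pyk-2, had the lowest ratio of all 29 member pairs, -1.03 (95% counting interval -1.59 to -0.50). The WT pyk-2 peak spanned chrIV:10909532-10910368 (837 bp), was centred at -12 bp and held 195 tags, with a height of 90 (percentile 49.1) and a fold enrichment of 10.5. The daf-2(-) pyk-2 peak reached a height of 44 (percentile 29.3) and a fold enrichment of 5.75 over 108 tags, and lay at chrIV:10909528-10910339 (812 bp) with its centre at 18 bp. The sites of the 2 pyruvate kinase genes thus stood at opposite ends of the range of ratios among pairs lower in daf-2(-).

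The remaining glycolytic genes had peaks over or beside their start sites. gpi-1 encodes glucose-6-phosphate isomerase. The WT gpi-1 peak lay at chrI:13575491-13577043 (1553 bp), centred at 19 bp, and its 346 tags rose to a height of 129 (percentile 74.6), a fold enrichment of 12.8. The daf-2(-) gpi-1 peak spanned chrI:13575529-13576866 (1338 bp), was centred at -50 bp and held 245 tags, with a height of 101 (percentile 81.6) and a fold enrichment of 13.7. Its fold enrichment was higher in daf-2(-) and its height lower, as for enol-1. pgk-1 encodes phosphoglycerate kinase, and its summits were 2 bp apart. The WT pgk-1 peak reached a height of 117 (percentile 68.3) and a fold enrichment of 12.7 over 223 tags, and lay at chrI:3866943-3867993 (1051 bp) with its centre at -71 bp. The daf-2(-) pgk-1 peak lay at chrI:3866918-3867926 (1009 bp), centred at -117 bp, and its 182 tags rose to a height of 90 (percentile 76.9), a fold enrichment of 11.7. Aldolase, which splits fructose-1,6-bisphosphate, has a pair of genes with unequal peaks. The WT aldo-2 peak spanned chrIII:5873956-5876577 (2622 bp), was centred at 1203 bp and held 536 tags, with a height of 127 (percentile 73.5) and a fold enrichment of 15.6. The daf-2(-) aldo-2 peak reached a height of 82 (percentile 72.6) and a fold enrichment of 10.2 over 284 tags, and lay at chrIII:5875331-5877461 (2131 bp) with its centre at 74 bp. At aldo-1 the shared peak was among the weakest of both lists, with heights of 43 in WT (fold enrichment 5.13, percentile 1.54, centre at 169 bp) and 33 in daf-2(-) (4.48, percentile 7.63, centre at -44 bp).

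Hexokinase makes glucose-6-phosphate at the start of the pathway, and 2 of its 3 genes were in the lists under sequence names. hxk-1 (F14B4.2) had a shared peak at -1322 bp in WT (height 130, fold enrichment 14.7) and at -1681 bp in daf-2(-) (height 60, fold enrichment 7.81), and an unshared WT peak at 2178 bp (height 56, fold enrichment 5.75). hxk-3 (Y77E11A.1) had a shared peak at 117 bp, with a height of 82 in WT (fold enrichment 10.5) and 59 in daf-2(-) (8.09). These are not among the member counts, which follow the symbols of the lists. fgt-1, the facilitated glucose transporter, had a peak in daf-2(-) only, at chrII:1504038-1504749 (712 bp, centre at -172 bp, 94 tags, fold enrichment 8.78). Its height of 64 was the greatest among the member peaks found in 1 list only, at percentile 58.8. A shared peak assigned to H17B01.4 lay further upstream of fgt-1, at -2412 bp in WT (height 185) and at -2366 bp in daf-2(-) (height 109).

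ldh-1 encodes lactate dehydrogenase, which interconverts pyruvate and lactate. The WT ldh-1 upstream peak lay at chrII:11724035-11724920 (886 bp), centred at -845 bp, and its 173 tags rose to a height of 126 (percentile 73), a fold enrichment of 15.04. The daf-2(-) ldh-1 peak spanned chrII:11724112-11724977 (866 bp), was centred at -778 bp and held 132 tags, with a height of 88 (percentile 75.97) and a fold enrichment of 12.1. An unshared WT peak lay inside the gene, and the WT ldh-1 internal peak reached a height of 54 (percentile 8.06) and a fold enrichment of 5.44 over 140 tags, and lay at chrII:11725160-11726120 (961 bp) with its centre at 315 bp. It was 1 of the 2 WT member peaks without an overlapping daf-2(-) peak.

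Of the 8 genes covered by the rule that encode enzymes of citric acid cycle reactions, 6 had peaks. They include aco-1 and mdh-1, whose products are cytosolic forms outside the mitochondrial cycle. The tallest was at cts-1 in WT (230) and at mdh-1 in daf-2(-) (181), where cts-1 reached 155. cts-1 encodes citrate synthase, which joins acetyl-CoA and oxaloacetate. The WT cts-1 peak lay at chrIII:10215424-10217556 (2133 bp), centred at 145 bp, and its 710 tags rose to a height of 230 (percentile 95.01), a fold enrichment of 29.4. This wide WT peak overlapped 2 separate daf-2(-) peaks. The daf-2(-) cts-1 upstream peak spanned chrIII:10216452-10217606 (1155 bp), was centred at -385 bp and held 330 tags, with a height of 155 (percentile 93.4) and a fold enrichment of 18.7. The daf-2(-) cts-1 internal peak reached a height of 58 (percentile 51.8) and a fold enrichment of 7.96 over 110 tags, and lay at chrIII:10215548-10216395 (848 bp) with its centre at 663 bp. The WT summit lay 83 bp from that of the upstream peak. Both aconitase genes had shared peaks. The WT aco-2 peak lay at chrIII:7972793-7974796 (2004 bp), centred at 69 bp, and its 780 tags rose to a height of 198 (percentile 91.6), a fold enrichment of 19.3. The daf-2(-) aco-2 peak spanned chrIII:7972917-7974818 (1902 bp), was centred at 142 bp and held 528 tags, with a height of 143 (percentile 91.3) and a fold enrichment of 16.4. aco-2 encodes the mitochondrial and aco-1 the cytosolic aconitase. The WT aco-1 peak reached a height of 134 (percentile 76.5) and a fold enrichment of 13.99 over 377 tags, and lay at chrX:11339015-11340853 (1839 bp) with its centre at 60 bp. The daf-2(-) aco-1 peak lay at chrX:11339140-11340096 (957 bp), centred at -254 bp, and its 161 tags rose to a height of 82 (percentile 72.6), a fold enrichment of 10.6. Its summits were 109 bp apart and its log2 ratio of height was -0.71 (95% counting interval -1.12 to -0.30).

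Malate dehydrogenase interconverts malate and oxaloacetate, and its 2 genes, mdh-1 for the cytosolic and mdh-2 for the mitochondrial enzyme, differed in the place and strength of their peaks. The WT mdh-1 peak spanned chrV:6516046-6517963 (1918 bp), was centred at -476 bp and held 819 tags, with a height of 224 (percentile 94.4) and a fold enrichment of 27.5. The daf-2(-) mdh-1 peak reached a height of 181 (percentile 95.8) and a fold enrichment of 22.6 over 657 tags, and lay at chrV:6516380-6517982 (1603 bp) with its centre at -653 bp. The intervals of mdh-1 overlapped over most of their length, but the summit lay at -980 bp in WT and at -382 bp in daf-2(-). At mdh-2 the shared peak was centred beyond the end of the gene model. The WT mdh-2 peak lay at chrIII:6604183-6607003 (2821 bp), centred at 2513 bp, and its 528 tags rose to a height of 87 (percentile 46.3), a fold enrichment of 9.38. The daf-2(-) mdh-2 distal peak spanned chrIII:6604315-6607040 (2726 bp), was centred at 2428 bp and held 409 tags, with a height of 74 (percentile 67.5) and a fold enrichment of 7.37. Its summits were 1080 bp apart. A weaker peak just upstream of the TSS was found in daf-2(-) only, and the daf-2(-) mdh-2 proximal peak reached a height of 43 (percentile 27.2) and a fold enrichment of 5.64 over 66 tags, and lay at chrIII:6607908-6608547 (640 bp) with its centre at -114 bp. fum-1, fumarase, had a shared peak of low height, 67 in WT (fold enrichment 7.84, percentile 23.2, centre at -74 bp) and 39 in daf-2(-) (5.35, percentile 18.5, centre at -64 bp).

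A pair of genes that supply NADPH also had strong peaks. idh-1 encodes the cytosolic NADP-dependent isocitrate dehydrogenase. The WT idh-1 peak lay at chrIV:9439927-9442784 (2858 bp), centred at -462 bp, and its 792 tags rose to a height of 239 (percentile 95.8), a fold enrichment of 29. In daf-2(-) this region held 2 peaks, a strong distal and a weak proximal one. The daf-2(-) idh-1 distal peak spanned chrIV:9441905-9442849 (945 bp), was centred at -1484 bp and held 266 tags, with a height of 168 (percentile 94.6) and a fold enrichment of 21.96. The daf-2(-) idh-1 proximal peak reached a height of 52 (percentile 43.9) and a fold enrichment of 6.84 over 113 tags, and lay at chrIV:9440637-9441518 (882 bp) with its centre at -184 bp. The WT summit, at -1544 bp, lay 9 bp from that of the distal peak. nnt-1 encodes the mitochondrial nicotinamide nucleotide transhydrogenase. The WT nnt-1 peak lay at chrX:6121003-6122680 (1678 bp), centred at -473 bp, and its 492 tags rose to a height of 145 (percentile 80.3), a fold enrichment of 17.9. The daf-2(-) nnt-1 peak spanned chrX:6121071-6122718 (1648 bp), was centred at -420 bp and held 506 tags, with a height of 161 (percentile 93.9) and a fold enrichment of 16.8. This was the single pair with the same assigned gene in both lists whose height was greater in daf-2(-), with a log2 ratio of 0.15 (95% counting interval -0.18 to 0.48). The interval includes equality, the fold enrichment was lower in daf-2(-), and the summits were 299 bp apart, at -352 bp for WT and at -53 bp for daf-2(-). Among the height ratios of all pairs, whose median was -0.53, nnt-1 stood at percentile 97.0. Among the ratios of fold enrichment it stood at percentile 78.7.

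Trehalose is made from UDP-glucose and glucose-6-phosphate by trehalose-6-phosphate synthase, which has the genes tps-1 and tps-2, and both carried several peaks. tps-1 had 3 peaks in each list, all shared. The promoter of tps-1 was also chosen by the study for ChIP-PCR, with this primer pair, given in lower case from 5′ to 3′ because it marks the single member promoter that was assayed there. Where the primers lie relative to the peaks was not determined here.
tps-1 forward primer: acaaatgttttctgtgcccctt
tps-1 reverse primer: gaaacggagaagaatcatggagc

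The tallest tps-1 peak in each list lay upstream. The WT tps-1 upstream peak reached a height of 167 (percentile 86.6) and a fold enrichment of 21.4 over 442 tags, and lay at chrX:17474127-17475475 (1349 bp) with its centre at -267 bp. The daf-2(-) tps-1 upstream peak lay at chrX:17474293-17475484 (1192 bp), centred at -354 bp, and its 407 tags rose to a height of 143 (percentile 91.3), a fold enrichment of 19.6. Their log2 ratio of height was -0.22 (95% counting interval -0.56 to 0.11). The other peaks lay inside the gene model. Nearer to the TSS, the WT tps-1 peak spanned chrX:17472597-17473487 (891 bp), was centred at 656 bp and held 140 tags, with a height of 86 (percentile 45.3) and a fold enrichment of 10.3. The daf-2(-) tps-1 nearer internal peak reached a height of 73 (percentile 66.6) and a fold enrichment of 9.35 over 129 tags, and lay at chrX:17472613-17473488 (876 bp) with its centre at 647 bp. Of the 3 sites this was the lowest in both lists. Farther into the gene, the WT tps-1 peak lay at chrX:17471366-17472379 (1014 bp), centred at 1825 bp, and its 241 tags rose to a height of 126 (percentile 73), a fold enrichment of 12.7. The daf-2(-) tps-1 farther internal peak spanned chrX:17471407-17472466 (1060 bp), was centred at 1761 bp and held 209 tags, with a height of 93 (percentile 78.2) and a fold enrichment of 11.7. The order of the 3 sites by height was the same in both lists. A further shared peak, assigned to R106.4, lay at -1736 bp from the tps-1 TSS in WT (height 136) and at -1830 bp in daf-2(-) (height 75).

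tps-2 had 3 peaks in WT and 2 in daf-2(-). Both upstream sites were shared. The WT tps-2 distal peak reached a height of 138 (percentile 78.02) and a fold enrichment of 15.9 over 295 tags, and lay at chrII:14597422-14598878 (1457 bp) with its centre at -2752 bp. The daf-2(-) tps-2 distal peak lay at chrII:14597564-14599003 (1440 bp), centred at -2618 bp, and its 189 tags rose to a height of 86 (percentile 74.8), a fold enrichment of 10.2. It was the farthest upstream of the member peaks in both lists. The WT tps-2 nearer peak spanned chrII:14599580-14600451 (872 bp), was centred at -886 bp and held 148 tags, with a height of 125 (percentile 72.5) and a fold enrichment of 15.1. The daf-2(-) tps-2 nearer peak reached a height of 73 (percentile 66.6) and a fold enrichment of 9.32 over 93 tags, and lay at chrII:14599693-14600386 (694 bp) with its centre at -862 bp. Their log2 ratios of height were -0.68 (95% counting interval -1.09 to -0.28) at the distal and -0.78 (95% counting interval -1.21 to -0.35) at the nearer site, both lower than those of the 3 tps-1 sites, between -0.44 and -0.22. The WT tps-2 internal peak lay at chrII:14600888-14601993 (1106 bp), centred at 538 bp, and its 142 tags rose to a height of 36 (percentile 0.130), a fold enrichment of 4.60. It was unshared and the lowest of the WT member peaks.

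Trehalase splits trehalose into glucose, and of its 5 genes tre-1 alone had an assigned peak. The WT tre-1 peak spanned chrI:6554477-6555649 (1173 bp), was centred at 334 bp and held 303 tags, with a height of 147 (percentile 81) and a fold enrichment of 18.8. The daf-2(-) tre-1 peak reached a height of 105 (percentile 83.2) and a fold enrichment of 13.6 over 237 tags, and lay at chrI:6554263-6555628 (1366 bp) with its centre at 216 bp. The summits lay at -22 and -48 bp, just upstream of the TSS, although both peaks were centred inside the gene. pcyt-1, the phospholipid gene, had a daf-2(-) peak only, at chrX:7577260-7578287 (1028 bp, centre at -994 bp, 135 tags, height 45, fold enrichment 6.17, percentile 31.2).

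Assigned peaks were missing at 12 of the 40 genes. They were the 4 glyceraldehyde-3-phosphate dehydrogenase genes gpd-1 to gpd-4, the trehalase genes tre-2 to tre-5, the hexokinase gene hxk-2, the mitochondrial isocitrate dehydrogenase gene idh-2, and the succinate dehydrogenase genes sdha-1 and sdha-2. The gpd genes include near-identical copies, and the authors kept uniquely aligned reads only, so an absent peak there is uncertain. The assignment went to 1 TSS per peak, and a neighbouring gene within 2500 bp bore a peak for 7 of the 12 genes in WT and for 9 in daf-2(-). No such share was computed over all genes. Where the peaks of these neighbours lie relative to the 12 genes was not determined. mai-1, next to gpd-2 and gpd-3, had heights of 246 in WT and 147 in daf-2(-). D2021.6 and D2021.4, near sdha-1, reached 200 and 145. daf-19, near gpd-4, reached 188 and 144. For sdha-2, gpd-1 and tre-3 no such neighbour was found in either list. Around the member genes themselves, 12 WT peaks and 13 daf-2(-) peaks assigned to other genes overlapped the gene model or the 2500 bp before it, and of these 4 in each list overlapped the model. They fell at 9 member genes in WT and 11 in daf-2(-), and the same count was not made for all genes.

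The position of the member peaks was close to that of the lists. In the 0.5 kb upstream of the TSS were 10 of 29 WT peaks (34.5%, 19.9 to 52.7) against 36.5% of the list, and 17 of 35 daf-2(-) peaks (48.6%, 33.0 to 64.4) against 37.0%. Upstream at any distance were 17 WT peaks (58.6%, 40.7 to 74.5) against 65.3%, and 27 daf-2(-) peaks (77.1%, 61.0 to 87.9) against 67.2%. Within the gene model were 11 WT peaks (37.9%, 22.7 to 56) against 22.6%, and 7 daf-2(-) peaks (20%, 10.04 to 35.9) against 20.5%. Every one of these intervals includes the share of the list except the share within the gene model in WT, whose lower bound of 22.7 lies at the list's 22.6%. The centres of the aco-1, aldo-1 and gpi-1 peaks and of the taller cts-1 peak were inside the gene in WT and upstream in daf-2(-), and that of pyk-2 was the reverse. The summits of these peaks, however, kept to the same side of the assigned TSS. With WT first, they were upstream at aco-1 (-296, -185), aldo-1 (-60, -87), cts-1 (-298, -372) and pyk-2 (-125, -18). At gpi-1 they were downstream (313, 332). Except at gpi-1, the distances of each pair ran from different annotated TSSs. The changed place of these centres is thus not a move of the summit across the TSS. More than 1 peak was assigned to 4 of 23 genes in WT (fbp-1, ldh-1, tps-1 and tps-2) against 12.5% of all genes with a peak, and to 7 of 26 in daf-2(-) (fbp-1, tps-1, tps-2, pyk-1, mdh-2, cts-1 and idh-1) against 16.1%.

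**Figure D3:**
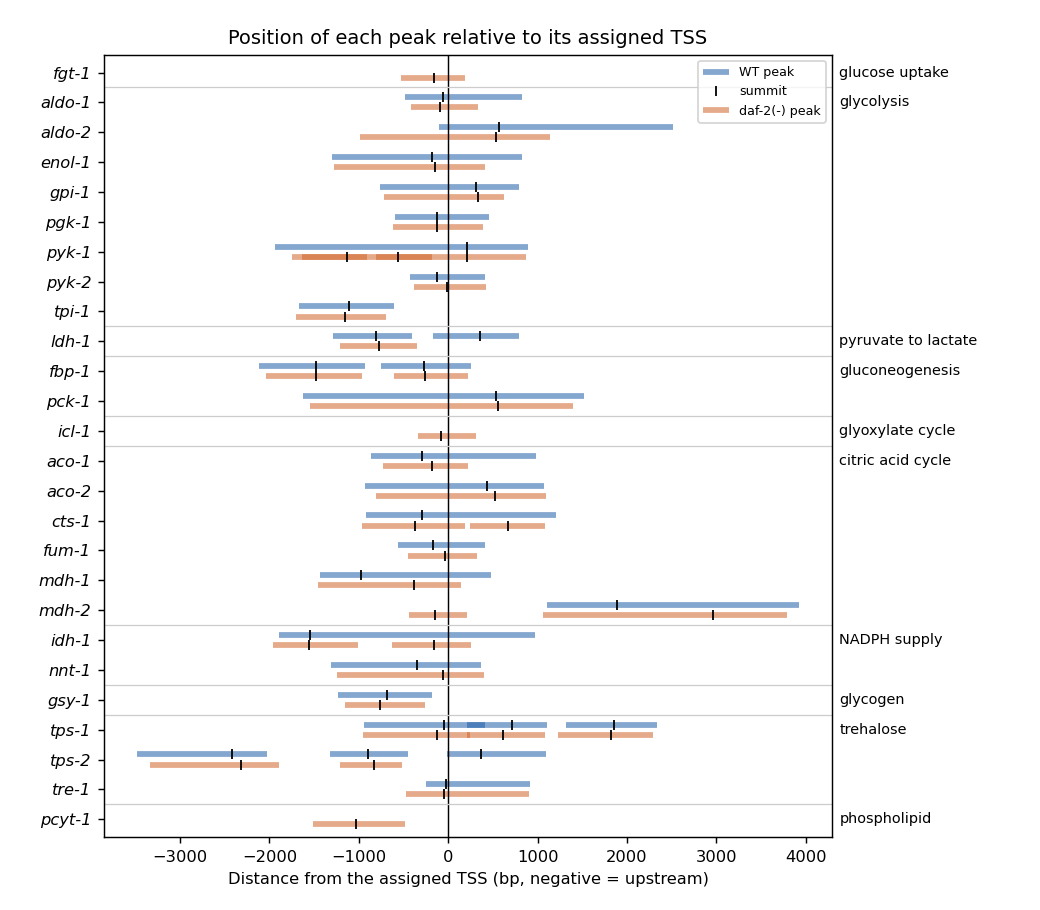
Extent of each member peak (bars) and its summit (black ticks) in bp from its assigned TSS (x axis, negative upstream), 1 gene per line, in WT (blue) and daf-2(-) (orange). Peaks of 1 gene can be placed from different annotated TSSs, as for pyk-1 and tps-1. The wide WT peaks of cts-1 and idh-1 each face 2 daf-2(-) peaks, and the summits of mdh-1 and mdh-2 differ by 598 and 1080 bp.

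Most member peaks were shared between strains. Of the WT member peaks, 27 of 29 overlapped a daf-2(-) peak (93.1%, 78.0 to 98.1) against 87.4% of the list, and of the daf-2(-) member peaks 30 of 35 did (85.7%, 70.6 to 93.7) against 70.6%. The interval in WT includes the share of the list, and the lower bound in daf-2(-) lies at it. Where fold enrichment was at least 10, all 24 WT member peaks (Wilson interval from 86.2%) were shared, against 97.9% of such peaks in the list, and all 22 daf-2(-) member peaks (from 85.1%), against 92.0%. Both of these intervals include the share of the list. The 7 unshared peaks were those inside tps-2 and ldh-1 in WT, and in daf-2(-) the further 2 of pyk-1 and those of mdh-2, fgt-1 and pcyt-1. Their heights were 36 and 54 in WT and between 36 and 64 in daf-2(-).

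The deposited heights of shared peaks, which are not scaled to library size, were mostly greater in WT. Over the 29 pairs of overlapping peaks with a member on either side, the median log2 ratio of height (daf-2(-) over WT) was -0.44 (95% interval -0.52 to -0.35), and over all 4717 pairs it was -0.53. Height was greater in daf-2(-) in 2 of 29 pairs, nnt-1 and the edge overlap of icl-1, against 6.17% of all pairs. Among the 23 member pairs with summits within 100 bp none was taller in daf-2(-), against 5.48% of such pairs in the lists. At 0 of 23 the Wilson interval allows a share of up to 14.3%. The counting interval of the ratio lay below equality in 19 of 29 pairs (65.5%, 47.4 to 80.1) against 59.5%. Summits stood within 100 bp in 23 of 29 pairs (79.3%, 61.6 to 90.2) against 86.7%. The ratio varied with WT height in the lists. At a WT height of 150 or more the median was -0.44 over the 13 member pairs and -0.44 over all 976 pairs. From 100 to below 150 it was -0.49 over 11 member pairs and -0.58 over all 1303. From 75 to below 100 the 3 member pairs had a median of -0.24, with a range from -1.03 to -0.23, and all 1199 pairs had -0.60. Below 75 it was -0.58 over 2 member pairs and -0.49 over all 1239. The lists were made separately, and the study's mapping summary gives more aligned reads for the daf-2(-) than for the WT ChIP library. The ratios are therefore read against all pairs and not as amounts of bound protein.

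**Figure D4:**
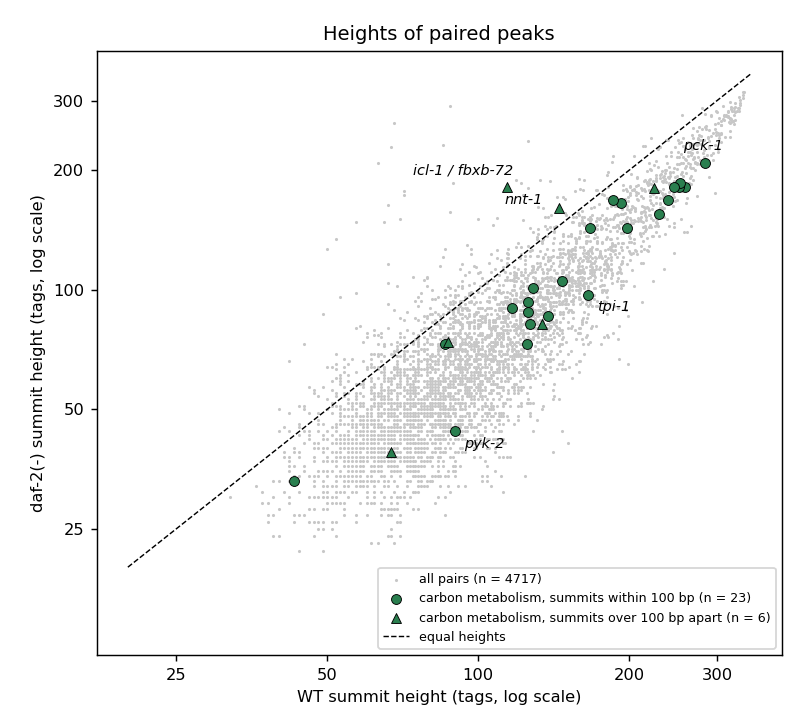
WT summit height (x axis) against daf-2(-) summit height (y axis), both in tags on log scales, for all 4717 pairs (grey) and the 29 member pairs (green circles with summits within 100 bp, triangles farther apart). The dashed line marks equal heights. All 23 circles lie below it, and the triangles above it are nnt-1 and the overlap of icl-1 with the edge of the peak assigned to fbxb-72.

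Other genes of the same pathways were looked up from a list of 35. A peak was assigned to 15 of them in WT (42.9%, 28.0 to 59.1) against 15.0% of all protein-coding genes, and to 15 in daf-2(-) (42.9%, 28.0 to 59.1) against 18.0%. Both lists had a peak for 11 of them, and 16 had none in either. Neither of these counts was made over all protein-coding genes. In the lower part of glycolysis and in gluconeogenesis, the phosphoglycerate mutase gene ipgm-1 had heights of 217 in WT and 186 in daf-2(-), and pck-2, another phosphoenolpyruvate carboxykinase gene, had 255 and 177. pyc-1, pyruvate carboxylase, which feeds oxaloacetate to gluconeogenesis, had 184 and 119. pdha-1, pdhb-1, dlat-1 and dld-1, which encode the pyruvate dehydrogenase complex, had no assigned peak in either list, nor had the phosphofructokinase genes pfk-1.1 and pfk-1.2 and the carboxykinase gene pck-3, while pdhk-2, whose kinase inhibits that complex, had 109 in WT and 81 in daf-2(-).

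Within the cycle, the subunits of the mitochondrial NAD-dependent isocitrate dehydrogenase idhb-1 (164 in WT and 133 in daf-2(-)) and idhg-2 (226 and 179) had shared peaks, and so had the succinyl-CoA ligase gene sucl-1 (156 and 121). No peak was assigned in either list to idha-1 and idhg-1, further subunits of that dehydrogenase, to suca-1 and sucg-1 of the ligase, or to ogdh-1 and dlst-1 of the oxoglutarate dehydrogenase complex. sdhb-1 and mev-1, subunits of succinate dehydrogenase, were each assigned a peak in 1 list, sdhb-1 in WT (height 85) and mev-1 in daf-2(-) (height 78). As for icl-1, the overlapping peak of the other list was assigned to a neighbour, F42A8.3 (height 53) and jmjd-4 (height 83). In the pentose phosphate pathway tkt-1, transketolase, had 145 and 127, and rpia-1, ribose-5-phosphate isomerase, had no peak. gob-1, trehalose-6-phosphatase, the second step of trehalose synthesis, had 197 and 151.

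pygl-1, glycogen phosphorylase, which releases glucose from glycogen, differed from these. Its daf-2(-) peak at chrV:3578758-3581664 had 762 tags, a height of 174 and a fold enrichment of 23.9, was centred at -1006 bp, and overlapped no WT peak. It was the single gene of the 35 with a peak of fold enrichment 10 or more that had no partner in the other list. The glycogen synthase gene gsy-1 had its shared peak with heights of 253 and 186, and agl-1 and gyg-2, further genes of glycogen metabolism, had no peak. Whether a WT peak at pygl-1 was left out because of the daf-16(-) strain was not tested.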

How the data were processed

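Members and gene lists were chosen with earlier results of these data known. The authors demultiplexed reads with CASAVA 1.8.2, trimmed them with Cutadapt, aligned them uniquely to WS230 with Bowtie 0.12.7, called peaks against input with MACS 1.4.2 at an FDR of 5% and assigned each peak to the nearest TSS. Only the WT and daf-2(-) peak lists were used, with strains taken from the deposited names. The deposited lists give the tag count of each peak and its summit height, a pileup signal. Fold enrichment was deposited by the authors as a ratio over local input background, and the FDR was deposited as a percent. A tag density table with 1 value column, whose name matches no sample, was not used.

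Computed here were overlaps (at least 1 bp), pairs (the overlapping daf-2(-) peak with the nearest summit), background (height over fold enrichment), Wilson 95% intervals for shares, order-statistic intervals for medians, exact Poisson intervals for tags and exact conditional intervals for height ratios. All cover counting error only, and the heights were not scaled to library depth, which the files do not give. With 1 library per strain no p-value was computed. Gene names, biotypes and neighbours came from a RefSeq table (WBcel235), without printing its coordinates. Every member gene with a peak was named. Full values were given for peaks whose fold enrichment was at least 10 and their partners, for genes with more than 1 peak, and for the strongest peak in 1 list only. Of other pathway genes, those reaching this fold enrichment were named, and so were those without a peak in either list. A FOXO motif search was designed but not run, since no sequence of these promoters was used here. Peak overlap and pairing were first tested on simulated peaks. The software was Python 3.11.15 with pandas 2.3.3, numpy 2.4.6, matplotlib 3.10.9 and scipy 1.17.1.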

Additional observations from a re-analysis of the deposited data

How the results depend on the processing

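Of 36 alternative values, 27 kept to within the counting interval, or within 1.5 times for counts, 9 moved and 0 reversed. With sharing defined by summits within 100 bp, 75.9% of WT and 65.7% of daf-2(-) member peaks were shared. The share of all peaks was not computed under this definition. Among overlapping pairs, summits stood within 100 bp in 79.3% of member pairs against 86.7% of all pairs. When only peaks of fold enrichment 10 or more were counted, 100% were shared in both lists, against 97.9% of such peaks in the WT and 92.0% in the daf-2(-) list. In a window from 2500 bp upstream to 300 bp downstream of the TSS, 72.4% of WT and 85.7% of daf-2(-) member peaks were found. The share of all peaks of each list in this window was not computed, so these values cannot be set against the lists. With the gene model alone, 4 WT and 4 daf-2(-) peaks assigned to other genes lay at member genes, against 12 and 13. With fold enrichment in place of height, the median log2 ratio of the pairs was -0.29. A comparison with protein-coding genes only, and pairs with the same assigned gene only, were chosen after seeing the data. The motif alternative was not run. No paired analysis was possible because there was a single library per strain. With tags per kb of peak the median of the member peaks was 1.34 times that of the list in WT and 1.41 times in daf-2(-), against 1.52 and 1.62 for fold enrichment.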
